A study of Mus musculus with 2 samples.

Results

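Keratins are the intermediate filament proteins of epithelia, and 10 of them were followed here in oral and dental tissue of young mice: Krt5, Krt14, Krt15, Krt17, Krt6a, Krt4, Krt13, Krt1, Krt10 and Krt8. They were chosen by name, as the listed keratins of basal, suprabasal and dental epithelium, and each was matched by its symbol to 1 row in the count matrix of each library. They make up 10 of the 34285 genes listed and 10 of the 54 keratin genes listed. The label held against the data for all but Krt10 and Krt8, with UMIs in keratinocyte-like clusters given below. It held only in part for Krt10, with 29.6% of its 2591 UMIs in epithelium and 48.9% in mesenchyme. Mesenchyme was also 51.8% of the kept Lipo-Clo and 49.4% of the kept Lipo-PBS cells. Krt10 held a larger share of UMIs in epithelium than in mesenchyme in both libraries. Krt8 had 63 UMIs over all cells and only 4 of these in epithelium.

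Dental tissue of C57BL/6J mice was dissociated at PN15.5 (PN, postnatal day) and profiled by droplet single-cell RNA sequencing. Lipo-Clo mice had received clodronate liposomes, which are taken up by phagocytes and deplete macrophages, by intraperitoneal injection at 40 μg/g body weight first at PN3.5, again at PN6.5 and PN9.5 and last at PN12.5. Lipo-PBS mice had received an equal volume of control liposomes on the same days. Each condition is 1 library, both with the batch label 1, the number of mice behind a library is not stated, and the liposomes were given systemically, so every comparison below is between 2 libraries and has no replicate check.

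A keratin filament is built from pairs of a type I (acidic) and a type II (basic) protein, and an epithelial cell changes its pairs as it differentiates. Basal cells of stratified epithelium, which sit on the basement membrane and divide, use Krt5 with Krt14, and Krt15 is a further type I keratin of the basal layer. Suprabasal cells of soft oral mucosa use Krt4 with Krt13, cornifying epithelium uses Krt1 with Krt10, and simple, single-layered epithelium uses Krt8 with Krt18. Krt6a and Krt17 are keratins of skin appendages, oral mucosa and stressed or healing epithelium, and Krt5, Krt14, Krt17 and Krt6a are also known from the enamel organ, the epithelium that makes enamel. In the mouse annotation the 5 type II members (Krt5, Krt6a, Krt4, Krt1 and Krt8) lie on chromosome 15 and the 5 type I members (Krt14, Krt15, Krt17, Krt13 and Krt10) on chromosome 11, all on the minus strand.

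Promoter sequence is shown for 3 members that were used in different layers, basal Krt5, suprabasal Krt13 and cornifying Krt10, because each carries a TATA-like run at nearly the same distance from its start although their expression differed. RefSeq promoter entries (build GRCm38.p6) were matched for Krt5, Krt14, Krt13, Krt10 and Krt8, and those of Krt14 and Krt8 and a second one of Krt13 lay inside the annotated gene and were not used. Krt15, Krt17, Krt6a, Krt4 and Krt1 were not matched. The lines give the 150 bases before the start, 5′ to 3′ on the minus strand, with the run in capitals, for Krt5 at chr15:101712906-101713055, for Krt13 at chr11:100121567-100121716 and for Krt10 at chr11:99389365-99389514.
Krt5: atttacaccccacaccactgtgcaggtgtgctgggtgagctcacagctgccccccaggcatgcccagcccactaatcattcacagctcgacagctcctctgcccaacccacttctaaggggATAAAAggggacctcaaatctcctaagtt
Krt13: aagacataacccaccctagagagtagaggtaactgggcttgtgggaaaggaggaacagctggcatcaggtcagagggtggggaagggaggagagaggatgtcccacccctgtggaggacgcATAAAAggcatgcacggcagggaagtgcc
Krt10: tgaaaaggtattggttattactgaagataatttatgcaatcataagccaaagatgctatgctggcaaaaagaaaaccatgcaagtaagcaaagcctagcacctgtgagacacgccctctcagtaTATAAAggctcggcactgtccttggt
The capitals mark ATAAAA 29 to 24 bases before the start of Krt5 and Krt13, and TATAAA 26 to 21 bases before the start of Krt10. Over 32851 windows of the same length, ATAAAA was present on either strand in 10.1% and TATAAA in 7.57%. ATAAAA was added to the search after these sequences had been read. None of the 3 windows held TGACTCA (in 2.84% of all windows), GGGCGG (28.6%) or GCCNNNGGC (9.61%), searched on both strands, which says only that these letters are not in these windows.

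The Lipo-Clo library held 31053404 UMIs (unique molecular identifiers, each standing for 1 captured RNA molecule) in 9362 cells, and the Lipo-PBS library 30537834 UMIs in 9653 cells. After filters on genes detected, mitochondrial share and doublet score, 8254 and 8261 cells were kept, with medians of 2567 and 2678 UMIs, and 23 kept cell barcodes occurred in both libraries. Cells were clustered with every keratin left out of the variable genes, and clusters were named without any keratin as a marker. Epithelium made up 10.1% of the kept Lipo-Clo cells (834) and 8.78% of the Lipo-PBS ones (725). Myeloid clusters, which hold the macrophages, were 5.54% of Lipo-Clo and 4.75% of Lipo-PBS cells, and neutrophil clusters 7.06% and 2.81%.

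Clustered again on their own, the epithelial cells fell into 16 subclusters. Of these, 4 carried markers of stratified epithelium and are called keratinocyte-like, 4 carried enamel protein genes such as Amelx and are called ameloblast-like (ameloblasts secrete enamel), 1 carried 4 of the 11 markers of other enamel organ epithelium, with Cxcl14, Nppc and Fst leading, and is called other dental epithelium-like, and 7 that also carried genes of other lineages are called mixed. Keratinocyte-like cells were 142 in Lipo-Clo, 17.0% of the epithelium (95% interval 14.5 to 19.8), and 242 in Lipo-PBS, 33.4% (30.0 to 36.9). Ameloblast-like cells were 406 (48.7%, 45.2 to 52.1) and 210 (29.0%, 25.7 to 32.4), other dental epithelium-like cells 48 and 65, and mixed cells 238 and 208. The epithelium of the Lipo-PBS library was thus richer in keratinocyte-like cells and that of the Lipo-Clo library in ameloblast-like cells, and this difference in makeup lies under every ratio taken over the whole epithelium. Whether it arose in the animals or in how the tissue was cut and dissociated cannot be told apart with 1 library each. All intervals are exact (Poisson for counts and ratios, Clopper-Pearson for shares) and cover counting error only.

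The basal pair Krt5 and Krt14 marked both oral-type and dental epithelium. In keratinocyte-like clusters Krt5 was at 4347 CPM (UMIs of the gene per 1000000 UMIs of the class; 4184 to 4515) in Lipo-Clo and 4004 (3877 to 4133) in Lipo-PBS. In ameloblast-like clusters it was at 2447 and 2508 CPM, and in other dental epithelium-like cells at 483 and 734 CPM. The order keratinocyte-like, ameloblast-like, other dental was the same in both libraries, and all 9 further named classes of tissue (mesenchyme to T or NK cells) lay between 15.1 and 117 CPM. Over both libraries, 84.9% of the 15325 Krt5 UMIs lay in epithelium, 42.1% in keratinocyte-like and 23.8% in ameloblast-like clusters.

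Krt14, the type I partner of Krt5, was at 7273 CPM (7061 to 7489) in Lipo-Clo and 5250 CPM (5105 to 5398) in Lipo-PBS keratinocyte-like clusters. Ameloblast-like clusters had 3051 and 2817 CPM and other dental epithelium-like cells 1145 and 1160 CPM, the same order as for Krt5. A single keratinocyte-like cell usually carried both genes, as 132 of 142 Lipo-Clo and 213 of 242 Lipo-PBS cells had UMIs of Krt5 and Krt14, and so had 365 of 406 and 175 of 210 ameloblast-like cells. Over 17 groups of epithelial cells (each a subcluster in 1 library with at least 30 cells, mixed subclusters included and the one led by Sprr1a and Krtdap too small), the pattern of Krt5 was closest to that of Krt14 among the members (Pearson correlation of log2(CPM + 10) 0.93, a description, since the groups share libraries and depth).

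Shares of cells say the same of the basal pair when cells with at least 1000 UMIs are thinned to 1000 UMIs. Shallower cells were left out of these shares. In Lipo-Clo and Lipo-PBS these were 53 of 406 and 49 of 210 ameloblast-like cells. They were 163 of 404 and 147 of 531 endothelial cells, and 269 of 524 and 129 of 266 B cells. Krt5 had a UMI in 92.7% of Lipo-Clo and 89.1% of Lipo-PBS keratinocyte-like cells (95.8% and 89.7% unthinned, medians of 3307 and 3146.5 UMIs), in 85.0% and 86.3% of ameloblast-like cells (medians of 2252.5 and 1814.5) and in 44.2% and 43.5% of other dental epithelium-like cells. Endothelial cells, which should lack keratins, had a Krt5 UMI in 4.15% and 4.95% of thinned cells (unthinned medians of 1118.5 and 1471 UMIs), and a Krt14 UMI in 3.73% and 10.9%. B cells had Krt5 in 2.35% and 2.92%. These shares are taken as the background level, whether from free RNA or from doublets that were not removed, and the shares of Krt5 and Krt14 in all 3 epithelial classes lay above them.

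Krt15 separated keratinocyte-like from ameloblast-like epithelium. In keratinocyte-like clusters it was at 1218 CPM (1132 to 1308) in Lipo-Clo and 1001 CPM (939 to 1067) in Lipo-PBS. In ameloblast-like clusters it had 4 and 1 UMIs, 3.90 and 2.22 CPM, which is no more than in endothelium, B cells or neutrophils of one library or the other. In other dental epithelium-like cells it had 0 UMIs in Lipo-Clo and 15 in Lipo-PBS, and these 15 sat in 3 cells, 9 of them in 1. Of all Krt15 UMIs, 67.7% lay in keratinocyte-like and 0.200% in ameloblast-like clusters. Nearly every keratinocyte-like cell with Krt15 also had Krt5 (98.8% and 98.6%), so that ameloblast-like cells had the basal pair without Krt15.

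**Figure D1:**
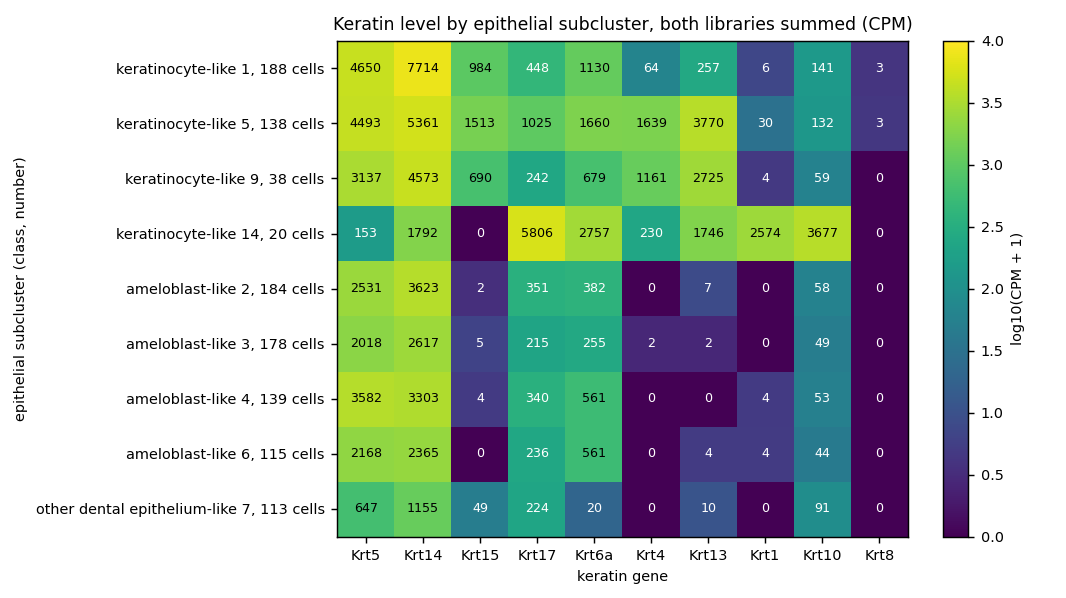
Heat map of the level of each of the 10 keratins (columns) in the 9 keratinocyte-like, ameloblast-like and other dental epithelium-like subclusters (rows, numbered, with their cells), in CPM with both libraries summed and the colour on a log10(CPM + 1) scale. Krt14 runs down all 9 rows. Krt5 does too, except in the subcluster led by Sprr1a and Krtdap (number 14), where it is at 153 CPM. Krt15, Krt4 and Krt13 are at most 7.20 CPM in the ameloblast-like rows and vary between the keratinocyte-like ones. Krt1 and Krt10 peak at 2574 and 3677 CPM in number 14, where Krt15 is at 0.

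Krt17 and Krt6a, known from appendages and stressed epithelium, were also shared between keratinocyte-like and ameloblast-like cells. Krt17 was at 821 CPM (751 to 896) in Lipo-Clo and 868 (809 to 929) in Lipo-PBS keratinocyte-like clusters, at 263 and 315 CPM in ameloblast-like clusters and at 123 and 278 CPM in other dental epithelium-like cells. Krt6a was at 1292 CPM (1204 to 1385) and 1329 (1257 to 1405) in keratinocyte-like clusters and at 378 and 440 CPM in ameloblast-like clusters. In other dental epithelium-like cells Krt6a was at 9.46 and 24.8 CPM, within the range up to 40.2 CPM seen in the named classes outside the epithelium. Krt6a thus did not stand above that range there, while Krt17 did (up to 28.7 CPM in those classes). A cluster of several lineages that was given no name reached 69.8 CPM for Krt6a and 48.8 for Krt17, in Lipo-PBS. Between ameloblast-like subclusters Krt6a also differed, being at 257 CPM in Lipo-Clo and 241 in Lipo-PBS in the one led by Amelx and at 618 and 509 CPM in the one led by G630018N14Rik.

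A small subcluster was led by Sprr1a, Krtdap, Wfdc12 and Cnfn, genes of late differentiating epithelium. It held 2 Lipo-Clo and 18 Lipo-PBS cells. There Krt17 was at 5819 and 5802 CPM, against at most 1242 CPM in the other keratinocyte-like subclusters. Krt6a was at 1176 and 3277 CPM there, against at most 1566 and 1703 CPM in the others. It thus stood above them in Lipo-PBS. In Lipo-Clo it was below the highest of them, a value that rests on 19 UMIs in 2 cells. Of the keratinocyte-like cells with Krt17, 91.5% in Lipo-Clo and 76.4% in Lipo-PBS also had Krt6a, whereas in ameloblast-like cells 41.8% and 43.9% did. Cells of the latter class are shallower, and the part of depth in that gap was not tested.

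Krt4 and Krt13, the pair of soft oral mucosa, lay, of the 3 named epithelial classes, almost entirely in keratinocyte-like clusters. Krt13 was at 2001 CPM (1891 to 2116) in Lipo-Clo and 2077 (1986 to 2171) in Lipo-PBS keratinocyte-like clusters, against 1.95 and 6.66 CPM in ameloblast-like clusters, 2 and 3 UMIs. Krt4 was at 676 CPM (613 to 744) and 953 (891 to 1017) in keratinocyte-like clusters, against 0 UMIs in Lipo-Clo (exact upper limit 3.59 CPM) and 1 in Lipo-PBS in ameloblast-like clusters. Neither level in ameloblast-like cells stood above those in named classes outside the epithelium, which reached 30.6 CPM for Krt13 and 9.55 CPM for Krt4. The cluster that was given no name reached 96.9 and 24.4 CPM, in Lipo-PBS.

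The pair was uneven between cells. Krt13 had UMIs in 57 of 142 Lipo-Clo and 103 of 242 Lipo-PBS keratinocyte-like cells and Krt4 in 18 and 34. Of the cells with Krt4, 88.9% and 91.2% also had Krt13, but of those with Krt13 only 28.1% and 30.1% also had Krt4. The 5 cells with the most Krt4 held 76.9% of its keratinocyte-like UMIs in Lipo-Clo and 71.2% in Lipo-PBS, so its level rests on few cells in each library. Of the cells with Krt4, 77.8% and 67.6% still carried the basal keratin Krt15. Across the 17 groups Krt4 and Krt13 followed each other (correlation 0.98), as did Krt15 and Krt13 (0.92).

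Keratinocyte-like subclusters differed in this pair. In the subcluster led by H19, Fabp5 and Ly6d (91 and 97 cells), Krt4 was at 37.3 CPM in Lipo-Clo and 89.6 in Lipo-PBS and Krt13 at 218 and 297. In the one led by Mt4 and Mt3 (35 and 103 cells), Krt4 was at 2099 and 1426 CPM and Krt13 at 5499 and 2968. Krt15 was present in both, at 1056 and 912 CPM in the former and 1978 and 1298 in the latter, and Krt5 differed less, with 4731 and 4569 against 4126 and 4664 CPM. The third, with Mt4, Mt3 and cell cycle genes such as Top2a (14 and 24 cells), had Krt13 at 1010 and 3646 CPM and Krt4 at 179 and 1688, so here the libraries lay far apart, on few cells.

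The cornifying pair Krt1 and Krt10 was concentrated in the subcluster led by Sprr1a and Krtdap. There Krt1 was at 5138 CPM in Lipo-Clo and 1730 in Lipo-PBS and Krt10 at 5881 and 2952, while basal Krt5 was at 0 UMIs in the 2 Lipo-Clo cells and 204 CPM in Lipo-PBS, and Krt15 at 0 in both. The mucosal pair was present there too, Krt13 at 3962 and 1018 CPM in 2 and 13 cells and Krt4 at 310 and 204 CPM in 1 and 3. The subcluster carried 12 of the 12 suprabasal and 4 of the 8 cornifying markers and did not pass as basal. Over all keratinocyte-like cells Krt1 was at 146 CPM (118 to 180) and 106 (86.3 to 129) and Krt10 at 302 (261 to 349) and 251 (220 to 286). Single cells decided these values, since 75 of the 90 Krt1 UMIs of Lipo-Clo sat in 1 cell and 77 of the 100 of Lipo-PBS in 2, and 90 of the 186 Krt10 UMIs of Lipo-Clo sat in 1 cell. Of the keratinocyte-like cells with Krt1, 4 of 7 and 8 of 14 also had Krt10.

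Krt10, apart from the scarce Krt8, was the one member with most of its UMIs outside the epithelium. Of its 2591 UMIs, 29.6% lay in epithelium and 48.9% in mesenchyme, where its level was 47.4 CPM in Lipo-Clo and 42.7 in Lipo-PBS. Mesenchyme held 51.8% and 49.4% of the kept cells. The level of Krt10 over the whole epithelium, given with the ratios below, was higher than in mesenchyme in both libraries. For comparison, Krt5 and Krt14 were at 20.03 and 29.7 CPM in Lipo-Clo mesenchyme and at 37.7 and 54.7 in Lipo-PBS, higher in Lipo-PBS where Krt10 was not. Of the keratin UMIs in mesenchyme, Krt10 made up 27.4%, against 1.54% in keratinocyte-like clusters, whereas Krt5 and Krt14 made up 17.4% and 25.4% there and 23.4% and 34.2% in keratinocyte-like clusters. The source of the Krt10 UMIs in mesenchyme was not tested. In ameloblast-like cells, thinned, Krt10 had a UMI in 6.23% and 3.73%, against 4.19% and 4.10% in mesenchyme (13.8% and 6.19% against 13.0% and 12.7% unthinned), so the order of these 2 classes was not the same in both libraries. Krt10 overlaps a gene on the opposite strand (Gm11940), and whether the counting used strand is not stated in the sources used here.

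Krt8, the type II keratin of simple epithelium, was hardly detected. It had 2 UMIs in the keratinocyte-like clusters of each library (3.25 and 2.12 CPM) and 0 in ameloblast-like clusters. Of its 63 UMIs, 45 lay in mesenchyme, at 2.21 and 0.955 CPM, and 8 in a single cell of a cluster that carried genes of several lineages. At this depth no use of Krt8 by any epithelial class could be shown. Krt8 overlaps Gm36026 on the opposite strand.

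**Figure D2:**
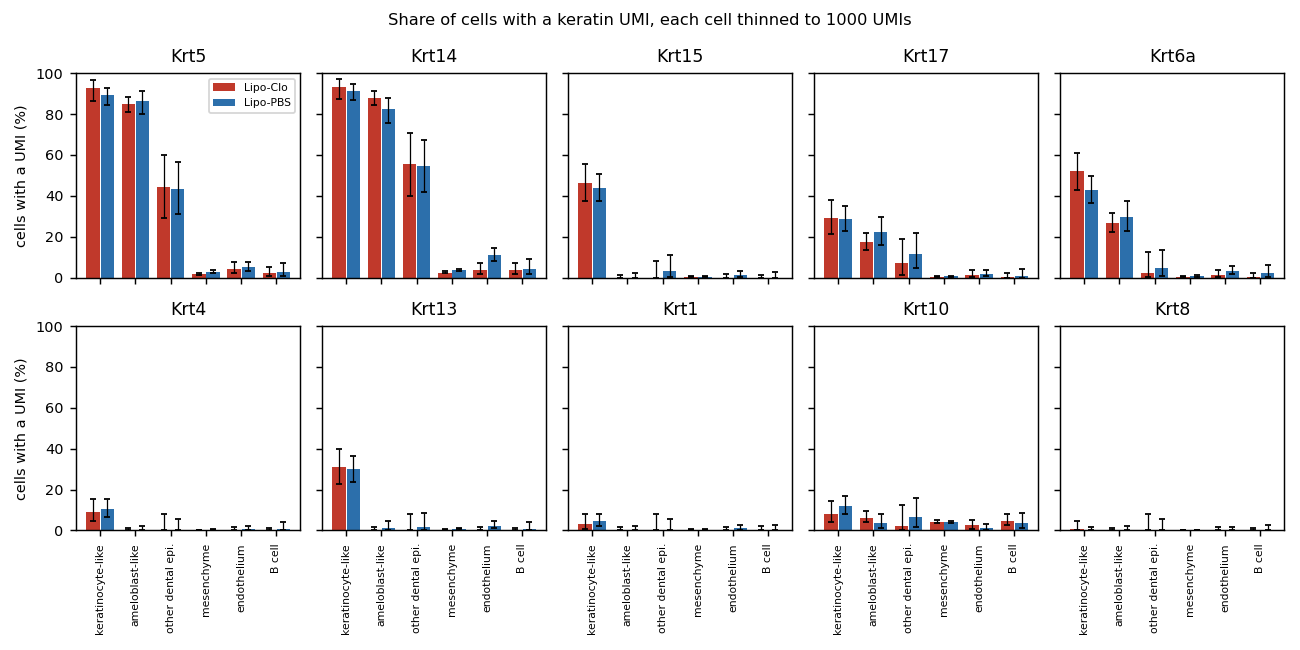
Share of cells with at least 1 UMI of each of the 10 keratins (y axis, percent) in 6 cell classes, with 1 coloured bar per library and error bars for the 95% Clopper-Pearson interval. Cells with at least 1000 UMIs were thinned to 1000 UMIs, and shallower cells were left out. In keratinocyte-like cells of Lipo-Clo and Lipo-PBS, Krt15 is at 46.3% and 43.9% and Krt13 at 30.9% and 29.9%, while in ameloblast-like cells Krt15 is at 0% and 0%, and endothelium reaches at most 10.9%, for Krt14 in Lipo-PBS.

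Keratins held a larger share of UMIs in keratinocyte-like clusters than in the dental classes. All keratins together made up 1.88% of UMIs in Lipo-Clo and 1.69% in Lipo-PBS keratinocyte-like clusters, 0.637% and 0.630% in ameloblast-like clusters and 0.188% and 0.241% in other dental epithelium-like cells. The 10 members held 96.3% and 93.5% of the keratin UMIs of keratinocyte-like clusters. Type I keratins made up 64.3% and 59.8% of keratin UMIs there and 55.0% and 52.4% in ameloblast-like clusters.

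The members were also set against a basal to suprabasal order of the cells made from markers that were no keratins. Keratinocyte-like cells with at least 5 UMIs over the basal and suprabasal markers (130 of 142 and 232 of 242) were placed in 4 bins by the suprabasal share of those UMIs. From the lowest to the highest bin these held 16, 12, 41 and 61 Lipo-Clo cells and 16, 20, 61 and 135 Lipo-PBS cells, and the bins under 20 cells are thin. Krt13 went from 0, 48.1 and 690 to 3295 CPM in Lipo-Clo and from 22.7, 124 and 426 to 3194 CPM in Lipo-PBS. Krt4 went from 0, 0 and 136 to 1162 CPM and from 0, 20.6 and 46.8 to 1509 CPM. Both mucosal keratins were thus highest in the top bin of both libraries, which is not a thin bin. The Krt4 level there still rests on few cells. Only 18 of 142 Lipo-Clo and 34 of 242 Lipo-PBS keratinocyte-like cells had any Krt4 UMI.

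The other members took other courses along this order. Krt5 was highest in the third bin, at 5749 CPM in Lipo-Clo and 5518 in Lipo-PBS, and lower in the fourth, at 3690 and 3506 CPM. Krt14 in Lipo-PBS had the same shape, with 7625 CPM in the third and 4444 in the fourth bin, and in Lipo-Clo it had 9521 CPM in the second and 9336 in the third bin and 6079 in the fourth. Krt15 was at 0 and 11.3 CPM in the lowest bin and at 1200 and 1202 in the highest, so the 16 cells of each library with the largest basal share had almost none of it. The basal keratins Krt5 and Krt15 were thus not highest at the end called basal. The order is therefore one of the markers used, and these keratins did not follow its name. Krt1 was at 263 and 167 CPM and Krt10 at 481 and 383 CPM in the highest bin, their maximum in both libraries. Krt17 was at 282 and 238 CPM in the lowest bin and at 938 and 1000 in the highest. Krt6a stayed between 1261 and 1370 CPM in all Lipo-Clo bins, and in Lipo-PBS it was at 646 and 516 CPM in the lower pair of bins and at 1429 and 1460 in the upper pair.

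**Figure D3:**
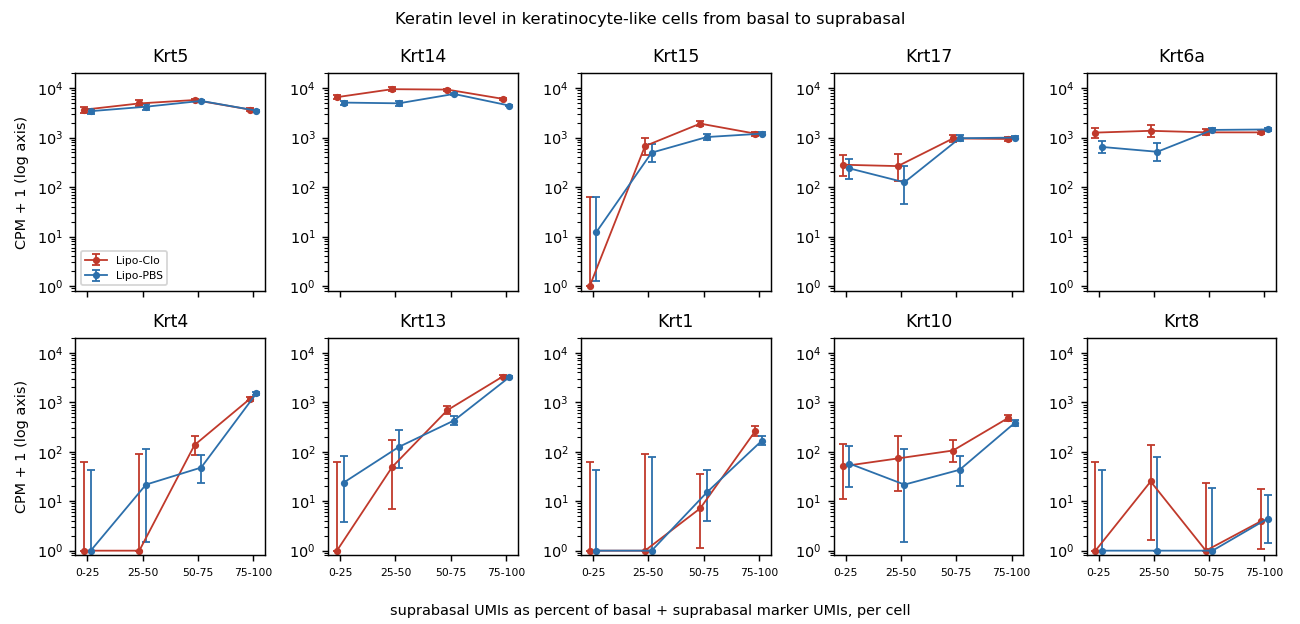
Level of the 10 keratins (y axis, CPM + 1, log scale) in keratinocyte-like cells binned by the suprabasal share of basal and suprabasal marker UMIs (x axis, 4 bins of 25 percentage points), 1 line per library, with bars for the exact Poisson 95% interval. Krt13 and Krt4 climb to 3295 and 1162 CPM in the last Lipo-Clo bin and 3194 and 1509 CPM in the last Lipo-PBS bin, while Krt5 falls from its peak in the third bin to 3690 and 3506 CPM.

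Over the whole epithelium, 1 of the 9 members with at least 20 UMIs differed between the libraries by at least 1.5-fold, against 24.4% of the 11680 genes measured there (9.37% higher and 15.1% lower in Lipo-Clo), a share of members not above that background. The member was Krt4. It had 547 UMIs in 25 cells of Lipo-Clo, 209 CPM, and 1124 UMIs in 61 cells of Lipo-PBS, 468 CPM, 2.24-fold lower in Lipo-Clo (log2 ratio -1.16, -1.31 to -1.01). With the subclusters weighted to the same mixture in both libraries the log2 ratio of Krt4 was -0.04, and Krt10 was then the 1 member past 1.5-fold, at 0.64. That value averages subclusters that went opposite ways, with Krt4 at 2099 CPM in Lipo-Clo and 1426 in Lipo-PBS in the subcluster led by Mt4 and Mt3 and at 179 and 1688 CPM in the cycling one. Of the epithelial cells, 17.0% were keratinocyte-like in Lipo-Clo and 33.4% in Lipo-PBS.

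For the other mucosal and basal members the ratios over epithelium were smaller than 1.5-fold. Krt13 was at 733 CPM in Lipo-Clo and 1058 in Lipo-PBS (log2 ratio -0.53, -0.62 to -0.44), and past 1.5-fold at -0.80 with the mixed subclusters left out, when 2 of 9 members were past it and 26.8% of the genes were (12.4% higher and 14.4% lower). Krt15 was at 371 and 486 CPM (-0.39, -0.51 to -0.27), Krt17 at 378 and 513 (-0.44, -0.56 to -0.32) and Krt6a at 620 and 735 (-0.24, -0.34 to -0.15). Krt5 was level between the libraries at 2581 and 2600 CPM (-0.01, -0.06 to 0.04), and Krt14 slightly higher in Lipo-Clo at 3771 and 3368 CPM (0.16, 0.12 to 0.21). Of these, the pair carried by most keratinocyte-like and ameloblast-like cells was the closest between the libraries. With the same mixture of subclusters Krt13 was at 0.41, Krt15 at 0.28 and Krt6a at 0.12, so their direction turned, and Krt17 was at -0.09. Krt1, at 40.9 and 50.8 CPM (-0.31, -0.70 to 0.07), and Krt10, at 154 and 151 CPM (0.03, -0.18 to 0.23), were not told apart by counting, and were at 2.40 and 1.02 with each library clustered on its own. The median of the 9 log2 ratios was -0.31, beside -0.06 over all genes measured.

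Within keratinocyte-like clusters 0 of 9 members were past 1.5-fold, against 26.8% of the 7908 genes measured there (7.79% higher and 19.0% lower in Lipo-Clo). Krt14 differed most among the basal keratins, with 7273 CPM in Lipo-Clo against 5250 CPM in Lipo-PBS (log2 ratio 0.47, 0.41 to 0.53), beside 0.28 (0.14 to 0.42) for Krt15 and 0.12 (0.05 to 0.19) for Krt5. The Krt14 value averages subclusters that went opposite ways. It was at 9024 and 6411 CPM in the one led by H19, Fabp5 and Ly6d and at 7909 and 2782 in the cycling one. It was at 4444 and 5786 in the one led by Mt4 and Mt3 and at 495 and 2219 in the one led by Sprr1a and Krtdap. Krt4 was lower in Lipo-Clo (-0.49, -0.67 to -0.33), while its partner Krt13 was level (-0.05), as were Krt17 (-0.08) and Krt6a (-0.04). Krt1 was higher by counting alone (0.46, 0.04 to 0.89), but without the subcluster led by Sprr1a and Krtdap, of 2 and 18 cells, it was at -0.52, so its direction turned. Krt10 was at 0.27 (-0.02 to 0.55). With the same mixture of subclusters, which leaves out the one led by Sprr1a and Krtdap, Krt4 was at 0.13, Krt13 at 0.47 and Krt17 at 0.44. That subcluster held 94 Lipo-Clo and 285 Lipo-PBS UMIs of Krt17. With each library clustered on its own Krt1, Krt10 and Krt17 were at 3.24, 1.60 and 0.60. The median of the members was 0.12, beside -0.09 over all genes.

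Haemoglobin RNA and other foreign RNA was present in these cells. The 7 erythroid markers summed to 34156 CPM in Lipo-Clo and 39584 in Lipo-PBS keratinocyte-like clusters, and to 25117 and 73386 CPM in dental clusters, all 7 detected in each. Neutrophil markers summed to 606 CPM (6 of 7 detected, Ly6g at 0) and 196 CPM (7 of 7) in keratinocyte-like clusters. Ameloblast markers summed to 1887 CPM (9 of 9) and 1109 (8 of 9, Enam at 0) there. Their part in the keratin ratios was not tested, and with haemoglobin, mitochondrial and ribosomal protein genes taken out of the totals Krt4 remained past 1.5-fold in epithelium.

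In dental epithelium (ameloblast-like with other dental epithelium-like cells), 1 of 6 members was past 1.5-fold, against 24.5% of 8330 genes (13.1% higher and 11.4% lower). That member was Krt15, with 4 UMIs in Lipo-Clo and 16 in Lipo-PBS (-2.80, -4.84 to -1.16), of which 9 sat in 1 cell. With each library clustered on its own its log2 ratio was 1.08, so the direction turned. The abundant pair was close, with log2 ratios of 0.21 for Krt5 and 0.32 for Krt14, as were Krt6a (0.14) and Krt17 (-0.28). Krt10, with 71 and 33 UMIs, was at 0.31. With the mesenchymal level subtracted Krt10 was at 0.95, past 1.5-fold.

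Taken apart, the dental classes gave different pictures. In ameloblast-like clusters 1 of 5 members was past 1.5-fold, against 24.1% of the genes (15.8% higher and 8.35% lower). It was Krt10, at 59.4 CPM in Lipo-Clo and 33.3 in Lipo-PBS (0.83, 0.00 to 1.76), with Krt5 at -0.04, Krt14 at 0.12, Krt17 at -0.26 and Krt6a at -0.22. The Krt10 levels rest on 61 and 15 UMIs. They did not stand above those of glia, at 62.8 CPM in Lipo-Clo and 66.8 in Lipo-PBS. In other dental epithelium-like cells 2 of 4 were past 1.5-fold and lower in Lipo-Clo, against 31.4% of the genes in either direction (14.8% higher and 16.5% lower). Those were Krt5, at 483 and 734 CPM (-0.60, -1.09 to -0.14), and Krt17, at 123 and 278 CPM (-1.17, -2.17 to -0.29), in 48 and 65 cells. Krt14 in the same cells was at 1145 and 1160 CPM.

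The mixed subclusters also carried keratins. There 2 of 9 members were past 1.5-fold, both lower in Lipo-Clo, Krt4 at -0.89 and Krt1 at -0.66, against 26.6% of the genes (9.99% higher and 16.6% lower). The Krt1 value rests on 15 Lipo-Clo and 22 Lipo-PBS UMIs, 14 of the former in 3 cells. That of Krt4 rests on 131 and 225 UMIs, 39 of the former in 1 cell. Mesenchyme markers summed to 28599 CPM in the Lipo-Clo and 33054 CPM in the Lipo-PBS cells of these subclusters, and their part in these ratios was not tested. The largest mixed subcluster held 87 and 126 cells, and the one led by haemoglobin genes 87 and 22.

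**Figure D4:**
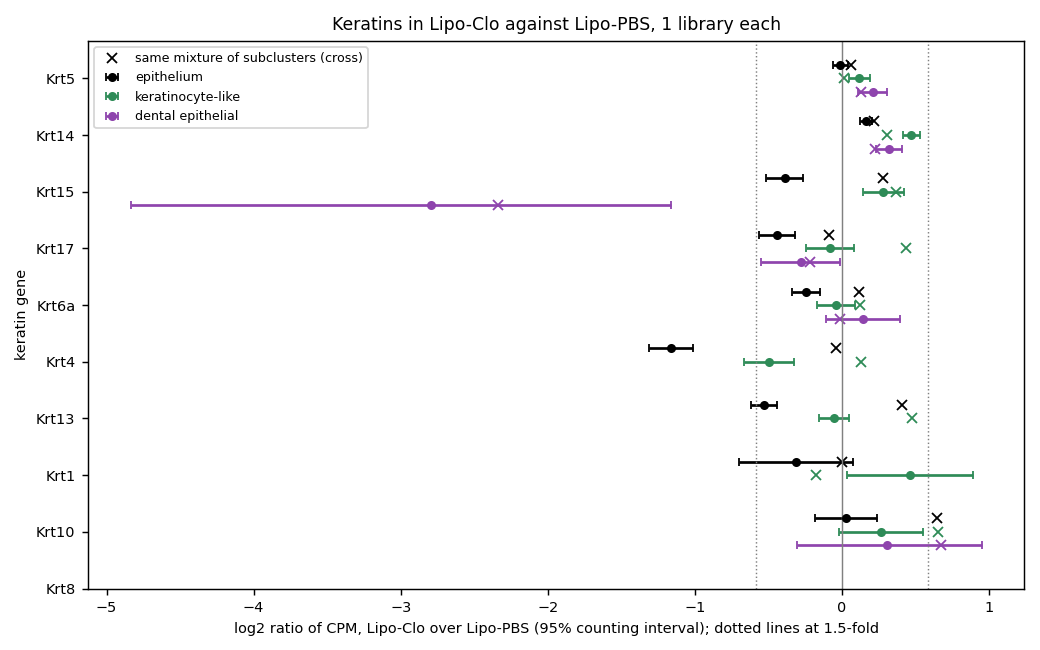
Log2 ratio of Lipo-Clo over Lipo-PBS (x axis) for each member in epithelium, keratinocyte-like clusters and dental epithelium, with bars for the exact Poisson 95% interval, crosses for the value with the same mixture of subclusters in both libraries, and dotted lines at 1.5-fold. Krt4 in epithelium lies at -1.16 and its cross at -0.04, Krt5 in epithelium lies at -0.01, and the Krt8 row is empty because the gene had fewer than 20 UMIs.

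Other keratins of the epithelium showed larger differences between the libraries than Krt5 or Krt14, though none has a replicate check. Of the 12 keratins with the next most UMIs in epithelium, 8 were past 1.5-fold, 3 higher and 5 lower in Lipo-Clo, beside the 24.4% background. Krt42, a type I keratin, was at 53.1 CPM in Lipo-Clo, from 139 UMIs in 80 cells, and 12.9 CPM in Lipo-PBS, from 31 UMIs in 24 cells (log2 ratio 2.04, 1.47 to 2.65), and in dental epithelium at 74.2 and 35.3 CPM (1.07, 0.39 to 1.81). Krt16, a type I partner of Krt6 keratins in stressed epithelium, was at 99.3 and 171 CPM (-0.78, -1.01 to -0.55). Krt6b, the close relative of Krt6a, was at 51.9 and 124 CPM (-1.26, -1.56 to -0.96), and Krt24 at 54.2 and 131 CPM (-1.27, -1.57 to -0.98). Krt42 was thus higher in Lipo-Clo, and Krt16, Krt6b and Krt24 were higher in Lipo-PBS. What part the cell makeup of the libraries had in each of these ratios was not tested. With the same mixture of subclusters 5 of the 12 were past 1.5-fold. The share of all genes past it in that setting is not given here.

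Inside keratinocyte-like clusters Krt6b and Krt24 were also lower in Lipo-Clo, while Krt6a was level. The mixture of subclusters differs inside these clusters too (35 and 103 cells in the one led by Mt4 and Mt3). No value with the same mixture is given here for Krt6b or Krt24. Krt6b had UMIs in 10 of 142 Lipo-Clo and 33 of 242 Lipo-PBS cells, and Krt24 in 31 and 73. Krt6b was at 106 CPM in Lipo-Clo and 281 in Lipo-PBS (-1.41, -1.83 to -1.02) and Krt24 at 119 and 286 CPM (-1.27, -1.66 to -0.89), against -0.04 for Krt6a. Krt32 was the third of 7 past 1.5-fold there, beside 26.8% of all genes. It was higher in Lipo-Clo, at 0.74 (-0.57 to 2.06) from 12 and 11 UMIs, and Krt16 was at -0.37 and Krt76 at 0.34. Over the whole epithelium, of the keratins with fewer UMIs, Krt19 was at -1.12 (10 and 20 UMIs), Krt18, the partner of Krt8, at -0.67 (13 and 19), Krt27 at 1.29 (16 and 6), Krt23 at 0.68 (14 and 8), Krt76 at -0.56, Krt7 at -0.29, Krt80 at -0.24 and Krt32 at -0.12. These rest on few molecules, and Krt6a and Krt6b are near-identical in their coding part, although no stretch of 91 bases in the last 500 bases of Krt6a occurred in another annotated gene.

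**Figure D5:**
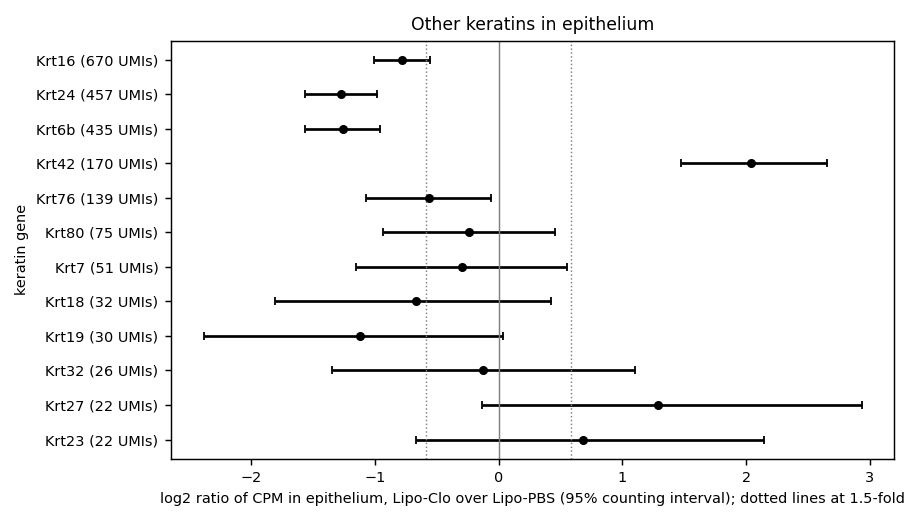
Log2 ratio of Lipo-Clo over Lipo-PBS in epithelium (x axis) for the 12 further keratins with the most UMIs, with bars for the exact Poisson 95% interval, UMI totals printed beside each and dotted lines at 1.5-fold. Krt42 stands at 2.04 on the right, and Krt24, Krt6b and Krt19 stand beyond -1 on the left.

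Genes that anchor keratin filaments to junctions were measured as well. In epithelium, 12 of 14 desmosome and junction genes could be measured, of which 1 was higher past 1.5-fold, Cldn1, a tight junction claudin (709 CPM in Lipo-Clo and 409 in Lipo-PBS, 0.79), and 3 were lower, Dsg1b, a desmoglein of differentiated layers (-1.21), Dsc2 and Dsc3, with a median of -0.06. That is 4 of 12 past the limit, beside 24.4% of all genes, whose median was also -0.06. Ctnnb1, a catenin of adherens junctions, was at 0.09. Cldn1 was past the limit in neither class taken alone. It was at 0.35 in keratinocyte-like clusters, from 15 and 18 UMIs, and at 0.20 in dental epithelium, with 1218 and 1060 CPM. The part of the cell makeup in its ratio over the epithelium was not tested. Of the 8 plakins and filament linkers, which tie keratins to junctions and to other filaments, 1 was higher, Cd151, a tetraspanin of hemidesmosomes (146 and 74.5 CPM, 0.97), and 0 lower, with Plec at -0.04, Macf1 at -0.15 and a median of -0.04. Within keratinocyte-like clusters, where 26.8% of all genes were past the limit, 2 of 12 junction genes were lower and 0 higher, and 2 of 8 linkers, Lamb2 and Cd151, were higher and 0 lower. In dental epithelium, where 24.5% were, 1 of 11 junction genes was lower and 2 of 8 linkers were higher.

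Of 14 transcription regulators of keratin genes measured in epithelium, 7 were lower past 1.5-fold (Tfap2a, Tfap2c, Ovol1, Grhl1, Grhl3, Zfp750 and Rbpj, with Grhl3 at -1.57) and 1 was higher (Sox21), beside 15.1% and 9.37% of all genes, with a median of -0.43. The Grhl3 value rests on 7 Lipo-Clo and 19 Lipo-PBS UMIs (-3.06 to -0.25). Klf5 and Hes1, those with the most UMIs, were at 0.29 and 0.14. Inside keratinocyte-like clusters 3 of 12 were lower (Ovol1, Sox21 and Rbpj) and 0 higher, beside 19.0% and 7.79% of all genes. Tfap2a, Tfap2c and Zfp750 were within the limit there, and Grhl1 and Grhl3 had too few UMIs. In dental epithelium 1 of 7 was higher (Sox21) and 1 lower (Rbpj), beside 13.1% and 11.4%. The other genes lower over the whole epithelium had too few UMIs there. Keratinocyte-like cells were 17.0% of the epithelium in Lipo-Clo and 33.4% in Lipo-PBS, and the part of this makeup was not tested.

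Of 16 cell envelope and barrier genes, which build the hardened shell of the outermost cells, 10 could be measured in epithelium, with 0 higher and 2 lower, Sprr1b and Cers3 (-1.71), and a median of -0.27, and Anxa1 and Cstb at 0.20 and -0.12. Of 13 stress-associated keratinocyte genes 10 could be measured, with 3 higher (S100a8 at 0.61, Cxcl2 and Stfa1) and 3 lower (Sprr1b, Areg and Fosl1, at -1.79 for Fosl1), and a median of -0.16. Few UMIs lie behind Cers3, 10 in Lipo-Clo and 30 in Lipo-PBS (-2.91 to -0.64), and Fosl1, 6 and 19 (-3.40 to -0.41). The share beside both lists was 9.37% of all genes higher and 15.1% lower. Inside keratinocyte-like clusters S100a8 and S100a9, calprotectin subunits that neutrophils also express strongly, were at 2.09 and 1.19. They were the only 2 of 7 stress genes past 1.5-fold there, and 2 of 9 envelope genes were lower and 0 higher. Of all genes there, 7.79% were higher and 19.0% lower. In dental epithelium 13.1% of all genes were higher and 11.4% lower. There 3 of 4 stress genes were higher and 1 lower, and 1 of 6 envelope genes was higher. S100a9 and S100a8 were at 2.31 and 2.09. Neutrophil markers summed to 606 CPM in Lipo-Clo and 196 in Lipo-PBS in keratinocyte-like clusters. S100a9 and S100a8 alone were at 293 and 127 CPM in Lipo-Clo and at 128 and 29.7 CPM in Lipo-PBS there. In dental epithelium the markers summed to 555 CPM (7 of 7 detected) and 123 CPM (5 of 7, Ltf and Ly6g at 0). There S100a9 and S100a8 alone were at 281 and 104 CPM in Lipo-Clo and at 56.8 and 24.5 CPM in Lipo-PBS. The neutrophil sums are not read as separate from these 2 genes. The part of neutrophil RNA in S100a8 and S100a9 was not tested.

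The genes nearest to each member across the 17 groups, keratins left out and 6629 genes compared, were taken for each in turn. For Krt5 they were Serpinb5 and Lgals3 (correlation 0.88 for both), and for Krt14 Gsto1 (0.90) and Mif (0.88). Krt15 lay nearest to H19 and Moxd1 (0.98 for both). Krt6a lay nearest to Dsg3 (0.97), a desmoglein of basal and mucosal epithelium, and Fam83h (0.89), a keratin-associated gene of ameloblasts, and Krt17 to Serpinb5 (0.83) and Eppk1 (0.81), a plakin. Cyp2f2 was among the nearest to Krt4 (0.97, with Slc8a1 at 0.97), to Krt13 (0.98, with Mt4 at 0.98) and to Krt1 (0.87, with Mgst1 at 0.85), although the subcluster with most of the Krt1 UMIs was not among these groups, so that the Krt1 values compared were low. Krt10 had lower values, 0.83 for 2310039H08Rik and 0.82 for Kdelr1, and its pattern was unrelated to that of Krt5 (-0.01).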

How the data were processed

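Single-cell suspensions of dental tissue were sequenced as 1 library per condition. The deposited matrices hold raw UMI counts of each gene in each cell, made by the authors without normalization; the file headers name Cell Ranger 8.0.0, whereas the submitters' processing notes name Cell Ranger 3.1.0, Seurat 3.1.1 and GRCm39 (mm39). Which end of transcripts the kit reads is not given in the sources used here, so levels were not ranked between genes. Samples were grouped by their labels, and 0 per-sample columns were left unmapped.

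Cells with fewer than 200 genes (473 Lipo-Clo, 748 Lipo-PBS) or over 20% mitochondrial UMIs (3 and 11) were left out. Scrublet called 0 and 1 doublets at its own threshold, so 632 and 633 top-scoring cells were removed instead, by the expected doublet rate. Counts were scaled to 10000 per cell, and 2000 variable genes without keratins, 30 components, 20 neighbours and Leiden resolution 1 (scanpy 1.11.5, leidenalg 0.10.2, Python 3.11.15) gave 28 clusters. Epithelium was clustered again with 1000 genes, 15 components, 15 neighbours and resolution 1. A class needed at least 3 of its markers at 2-fold or more over the other tissue and in 10% of cells. The resolution of the second step, its reference for markers, the 25% limit for mixed subclusters (20% would have called the one led by Sprr1a and Krtdap mixed) and the handling of cycling genes (otherwise the cycling one would be mixed) were set after keratin levels had been seen. The members, gene lists and alternatives were chosen with earlier results of these data known.

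UMIs were summed per class and library. Ratios are Lipo-Clo over Lipo-PBS, for genes with at least 20 UMIs over both libraries, with exact Poisson 95% intervals (scipy 1.17.1), and 1.5-fold is a limit of size, not a test. Counts were summed as deposited, and edgeR 4.0.16 (TMM) and DESeq2 1.42.0 size factors served only as alternative scalings. No p-value was computed. The named genes are the members, the 12 other keratins with the most UMIs in epithelium, per list the 2 genes with the most UMIs and the 1 with the largest ratio, and per member the 2 nearest non-keratin genes; Dsc2, Dsc3 and the further list genes past the limit were named after their values were seen. The ratio computation was tested on simulated counts. Coordinates and sequences are from RefSeq on GRCm38.p6 and were not used with the counts.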

Additional observations from a re-analysis of the deposited data

Results flagged for a closer look

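Krt15 differed in opposite directions between the libraries in the 2 main kinds of epithelium. Its log2 ratio was 0.28 in keratinocyte-like clusters and -2.80 in dental epithelium, a difference of 3.08, which was not tested and rests on 4 and 16 dental UMIs, 9 of the 16 in 1 cell. With each library clustered on its own the dental ratio was 1.08, so the opposite direction was not kept.

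Krt5 and Krt14 were seen outside the classes compared, in 1 cluster of 57 Lipo-Clo and 717 Lipo-PBS cells that carried genes of several lineages and was given no name. Over both libraries Krt5 was at 221 CPM there, against 94.3 CPM in endothelium and 45.3 CPM in B cells, and Krt14 at 311 CPM, against 147 and 73.7 CPM. By library the cluster had Krt5 at 48.2 CPM in Lipo-Clo and 231 in Lipo-PBS, and Krt14 at 82.6 and 324 CPM. Endothelium had Krt5 at 55.3 and 113 CPM and Krt14 at 44.3 and 197. B cells had Krt5 at 29.1 and 80.2 CPM and Krt14 at 52.1 and 120. In Lipo-Clo the cluster thus lay below endothelium for Krt5.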

How the results depend on the processing

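No paired analysis was possible because there is a single library per treatment, and no replicate could be left out. Krt8 in epithelium and Krt15 in dental epithelium rest on a few UMIs, which limits what can be said of them. Of the counts of genes past 1.5-fold and the like, 69 recomputed values stayed within 1.5 times the main value and 28 did not, and of the members' ratios 297 stayed, 125 moved past their interval and 1 that was past 1.5-fold changed sign (Krt15 in dental epithelium). Changes of sign among ratios within 1.5-fold count as moved or stayed, and those of Krt13, Krt15, Krt6a, Krt4, Krt17 and Krt1 are given with their values in the report. The cause of each move was not tested, except where fewer cells, fewer genes or another limit make it. Krt4 ranged from -2.03 to -0.04 in epithelium and from -1.12 to 0.13 in keratinocyte-like clusters, where it was at -0.03 without the cycling subcluster. Krt15 in dental epithelium had no value with ameloblast-like cells alone, thinned cells or mesenchyme subtracted. The settings that leave out the mixed, cycling, haemoglobin-led or Sprr1a-led subclusters, and ameloblast-like cells alone, were chosen after seeing the data.

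Members past 1.5-fold in epithelium (1 of 9) were 2 with totals free of mitochondrial, haemoglobin and ribosomal protein genes, 3 with each library clustered on its own (Krt1 2.40, Krt10 1.02 and Krt4 -1.20), 3 with doublets kept, 3 with cells thinned to 1000 UMIs (Krt1 -1.28, Krt13 -0.79 and Krt4 -2.03), 4 as a mean over cells scaled to 10000 UMIs and 2 with mixed subclusters left out (Krt4 -1.24 and Krt13 -0.80). In keratinocyte-like clusters (0 of 9) they were 1 with every gene of at least 1 UMI in each library, 3 with each library on its own, 1 with doublets kept (Krt4 -0.72), 5 in cells with at least 3 UMIs over the keratin-free markers, 1 thinned (Krt15 0.62), 1 with the same mixture of subclusters (Krt10 0.66) and 2 as a mean over scaled cells (Krt15 0.63 and Krt4 -0.65). In dental epithelium (1 of 6) they were 2 with at least 1 UMI in each library, 2 with keratins among the variable genes, 2 with each library on its own (Krt15 reversed, at 1.08), 2 under stricter cell filters (500 genes or more, mitochondrial share up to 10%), 4 with the marker minimum of 3 UMIs, 0 thinned and 2 with the same mixture. The same mixture leaves out 4 subclusters with under 10 cells in a library, among them the one led by Sprr1a and Krtdap. Beside the main counts, 24.4% of all genes in epithelium, 26.8% in keratinocyte-like clusters and 24.5% in dental epithelium were past 1.5-fold. That share differs between settings and is not given here for most of them. The counts are therefore not read as results about the members.

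All genes past 1.5-fold in epithelium (2853) were 5667 with at least 1 UMI in each library and 960 at 2-fold. Other keratins (8 of 12) were 5 at 2-fold, 5 thinned and 5 with the same mixture. With mixed subclusters left out they were 4 of the 9 that could be measured, beside 26.8% of all genes. The share of all genes in the thinned and same-mixture settings is not given here. These counts are therefore not read as results about keratins. Leaving out the mixed subclusters also left 1 envelope gene (from 2) and 3 stress genes (from 6). Of all genes past the limit, 38.3% were higher in Lipo-Clo (1094 against 1759), 26.6% with the changed totals (807 against 2227) and 54.2% with mesenchyme subtracted (1856 against 1570), where the median of all genes was -0.16 and 0.11 in place of -0.06.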
